A study of Mus musculus with 8 samples.

Results

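Macrophage identity genes are the receptors and transcription factors by which a cell of the macrophage lineage is recognised and kept in that state. Here they were 9 genes taken as a fixed list (Csf1r, Adgre1, Mertk, Cd68, Itgam, Spi1, Cebpa, Cebpb and Maf), matched by Ensembl identifier to the count files, out of 54532 genes listed there. All 9 were found and all 9 passed the filter on low counts, which 14591 genes passed. The rule names the genes and uses no threshold on measured values, but the list was drawn up with earlier results of these data known. Gene expression was measured by RNA-Seq of polyadenylated RNA in BMDMs (bone marrow-derived macrophages), obtained by culturing marrow precursors for 7 days in medium with L929 cell supernatant. The marrow came from mice aged 6 to 8 weeks, on a C57BL/6J background per the study's methods.

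The 8 libraries formed 4 groups of 2. The WT group was wild-type BMDMs and the Trex1-KO group was BMDMs from Trex1-/- mice, which lack the exonuclease that degrades cytosolic DNA. The Trex1-KO+H151 and Trex1-KO+SN-011 groups were Trex1-KO BMDMs given a small molecule antagonist of STING, the adaptor that relays cytosolic DNA sensing to interferon. Incubation lasted 12 h, with H151 at 500 nM. No dose of SN-011 is in the labels, while the study's methods give the same concentration for both antagonists and DMSO as the vehicle for Trex1-KO cells. A figure legend of the study states DMSO for the WT cells as well. A figure legend of the study describes the 2 libraries of a group as independent experiments, while the labels do not say whether they came from separate animals, so the p-values below measure the spread between these libraries.

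CSF1R is the receptor for M-CSF, the growth factor that L929 cells secrete and on which macrophages depend for survival. PU.1, encoded by Spi1, and the C/EBP factors switch on myeloid genes in progenitors, and c-Maf acts later, in the mature macrophage. F4/80 (Adgre1), CD68 and the CD11b integrin chain (Itgam) are the surface and lysosomal proteins by which macrophages are usually stained, and MerTK binds apoptotic cells for engulfment.

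The libraries held between 11845470 and 17284863 counts in total. Levels are given in CPM, for which counts were divided by library totals times TMM factors of 0.973 to 1.04, and 1 count was worth 0.0582 to 0.0849 CPM. Trex1 itself was listed at 0 counts in all 8 libraries, WT included. All of its exonic bases lie within exons of another gene, where reads were not counted, so the knockout could not be checked in these files. The labelled cell type was checked against the list itself. Csf1r ranked 12 and Adgre1 ranked 23 among 54532 genes by mean CPM, and the least expressed member, Cebpb, ranked 3581. Markers of lymphoid cells (6 genes), mast cells and basophils (4 genes) and the erythroid and megakaryocyte lineages (5 genes) each summed to no more than 2.49 CPM in any library. Markers of stromal cells (8 genes) summed to between 1055 and 2803 CPM and those of granulocytes (10 genes) to between 9.96 and 101 CPM, and their values by group are given with the results.

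The promoters of members were examined for letters that myeloid and interferon-related factors are known to bind. Promoters are among the places where such factors could reach the genes compared here, and sequence outside the windows below was not searched. Promoter sequences (250 bases before to 50 bases after the start, RefSeq, build GRCm38.p6) were at hand for 5 of the 9 members, namely Cd68, Itgam, Mertk, Cebpa and Cebpb. Searched on both strands were GAGGAA (the core bound by ETS factors such as PU.1), TTGCNNAA (C/EBP), TGAGTCA (AP-1, and close to the element of Maf factors) and the interferon-stimulated response element in its form of GAAA repeated after a gap of 2 bases. Among 32851 promoters of this length, 28.3% held the first, 10.8% the second, 5.20% the third and 3.44% the fourth. The Cd68 promoter is printed because Cd68 was the member that differed most between genotypes, Itgam because it held the most ETS cores, and Cebpa because it moved furthest under the antagonists and held no match. Capitals mark the matches, none of which overlapped another.
Cd68 (chr11:69666121-69666420, minus strand): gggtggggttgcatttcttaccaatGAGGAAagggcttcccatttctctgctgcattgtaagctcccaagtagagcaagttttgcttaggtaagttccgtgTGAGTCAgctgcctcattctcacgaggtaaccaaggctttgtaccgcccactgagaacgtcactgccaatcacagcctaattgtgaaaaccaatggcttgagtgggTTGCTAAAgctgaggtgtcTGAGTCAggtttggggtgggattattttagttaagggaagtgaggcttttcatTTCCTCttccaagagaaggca
Itgam (chr7:128062390-128062689, plus strand): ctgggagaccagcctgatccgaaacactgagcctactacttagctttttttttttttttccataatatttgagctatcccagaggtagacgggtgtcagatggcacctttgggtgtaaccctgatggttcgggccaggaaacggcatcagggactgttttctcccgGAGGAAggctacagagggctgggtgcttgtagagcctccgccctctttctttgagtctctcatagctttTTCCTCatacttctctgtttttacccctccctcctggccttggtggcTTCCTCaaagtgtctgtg
Cebpa (chr7:35119043-35119342, plus strand): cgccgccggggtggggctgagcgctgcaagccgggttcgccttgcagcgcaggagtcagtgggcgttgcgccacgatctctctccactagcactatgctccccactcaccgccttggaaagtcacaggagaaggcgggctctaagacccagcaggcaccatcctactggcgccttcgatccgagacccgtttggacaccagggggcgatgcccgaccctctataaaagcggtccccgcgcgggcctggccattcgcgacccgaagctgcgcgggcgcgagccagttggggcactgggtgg

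The Cd68 window held 2 ETS cores, 1 C/EBP match and 2 copies of TGAGTCA. The Itgam window held 3 ETS cores and no other match. The windows of Cebpa, Cebpb and Mertk held none of the 4 motifs, and none of the 5 windows held the interferon-stimulated response element. A match is a string of letters in the reference and not a measured binding site.

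Levels of different genes are compared per kilobase of exonic sequence that no other gene shares, because reads falling on shared exons were not counted. On this scale, Csf1r stood highest, at 997 CPM per kb as the mean of 8 libraries. Cd68 followed at 787 and Adgre1 at 717 CPM per kb, and their ranges over libraries (615 to 896 and 658 to 798) overlapped. Every library of the other 6 members lay below every library of these 3.

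Among the transcription factors and the other receptors, Cebpa had 154, Itgam 141, Spi1 140, Maf 119, Mertk 88.9 and Cebpb 51.2 CPM per kb. The ranges of Cebpa, Itgam and Spi1 overlapped, whereas every Mertk library (85.1 to 92.7) lay below every Maf library (108 to 128) and every Cebpb library (44.4 to 61.0) below every Mertk library. Itgam is the least certain of these levels, since 68.7% of its 5024 exonic bases are shared with the gene model Gm49368 and its counts come from the remaining 1574 bases. Cebpb shares 20.7% of its exonic bases with Tmem189 and Csf1r shares 15.1% with Hmgxb3, and the other 6 members share 5.34% or less.

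**Figure D1:**
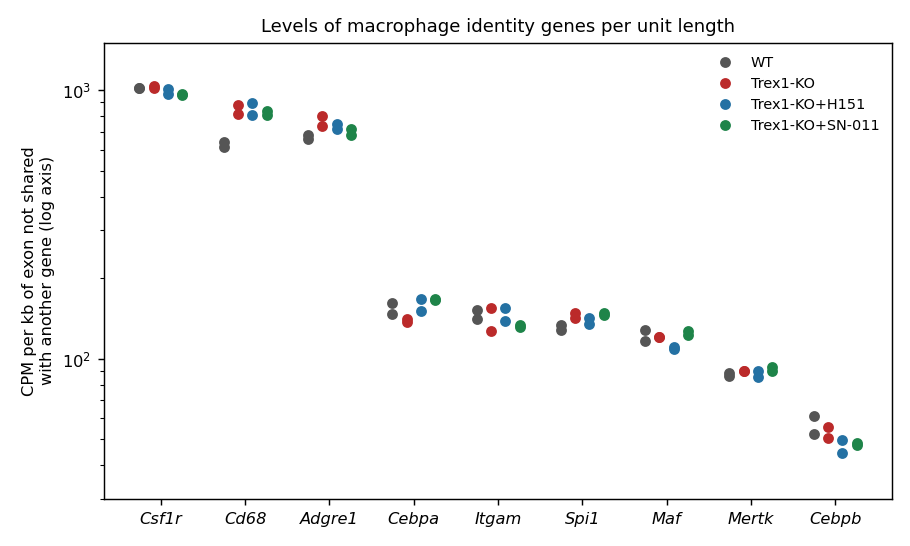
Levels of the 9 genes as CPM per kb of exon not shared with another gene, on a log axis, with 1 point per library coloured by group. Csf1r, Cd68 and Adgre1 lie between 615 and 1035 CPM per kb in every library, Cebpb lies between 44.4 and 61.0, and for Cd68 both WT points sit below the 6 others.

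Across the 8 libraries, the highest library exceeded the lowest by 1.08-fold for Csf1r, 1.09-fold for Mertk, 1.16-fold for Spi1, 1.18-fold for Maf, 1.21-fold for Adgre1, 1.22-fold for Itgam and Cebpa, 1.37-fold for Cebpb and 1.46-fold for Cd68. The median of these, 1.21, was close to the median of 1.20 over the 3581 tested genes whose mean CPM was at least that of the lowest member. That set was not matched to the level of each member, and most members lie well above its lower end. Counts behind a member's value ran from 667 (Cebpb) to 80602 (Csf1r) per library.

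**Figure D2:**
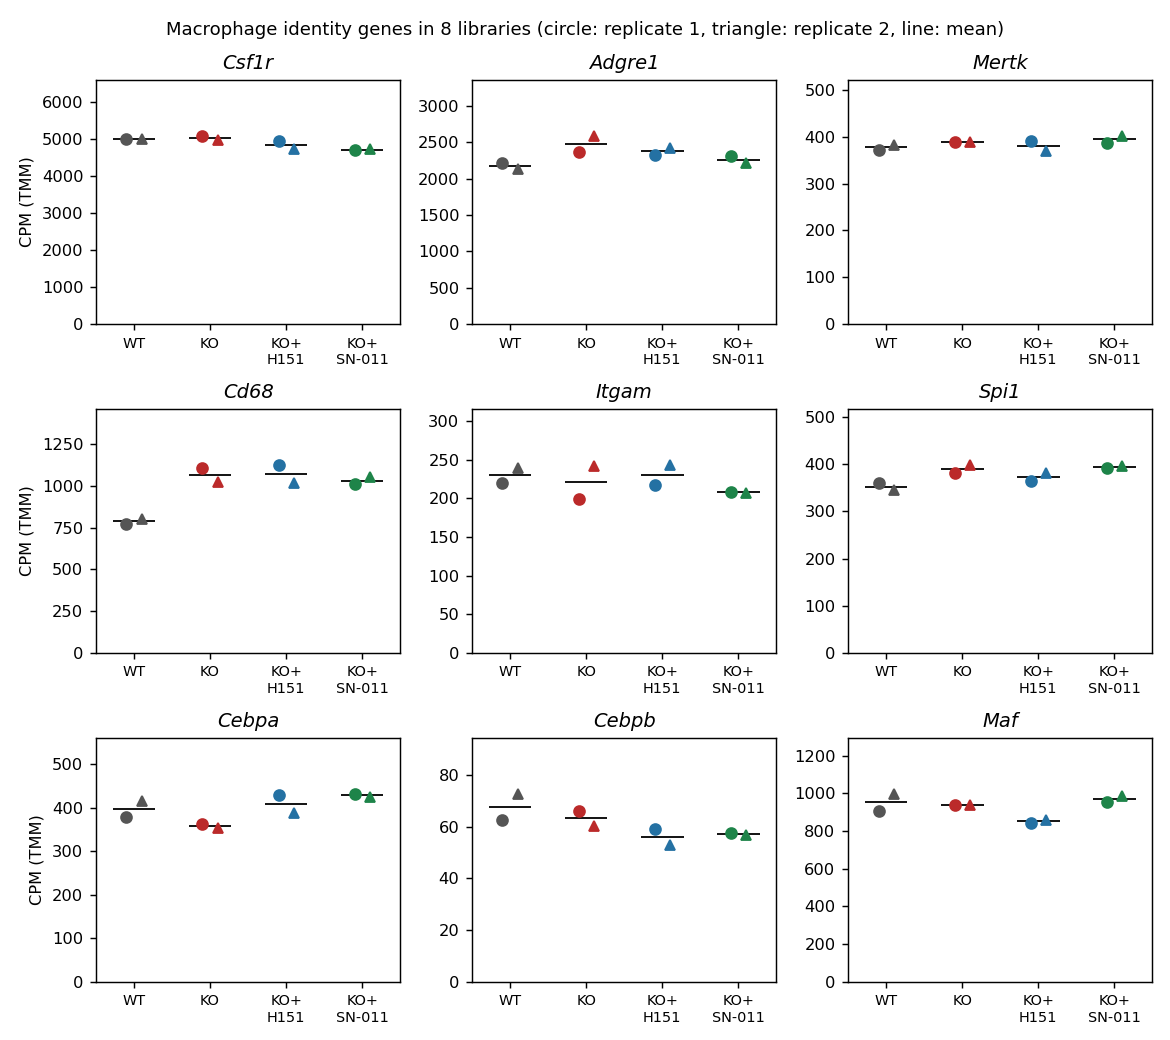
CPM (TMM-scaled, axes from 0) of each gene in each library, with circles for replicate 1, triangles for replicate 2 and a line at the group mean of 2. Cd68 was 773 and 803 CPM in WT and at least 1012 CPM in the 6 Trex1-KO libraries, while for most other genes the groups lie within a narrow band.

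The first comparison asked how loss of Trex1, which leaves cytosolic DNA sensing switched on, altered the identity genes. Of the 9 genes, 2 rose in Trex1-KO BMDMs (Cd68 and Adgre1), none fell and 7 did not pass the test. A gene is said to have risen or fallen, or to be called, where its adjusted p was below 0.05 in edgeR's quasi-likelihood F-test. The adjustment (Benjamini-Hochberg) took in every tested gene. In this comparison 16.4% of all tested genes were called, 9.27% as higher and 7.11% as lower, so the share of members called was near the background. Of all calls 56.6% were higher, against 37.2% when libraries were scaled by total counts only. The members' median log2 fold change was 0.011, beside -0.0020 over all tested genes, and their median absolute change was 0.10, beside 0.18. Since RNA was taken from whole cultures, fewer cells of a type and less RNA per cell cannot be told apart in any of these comparisons.

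Cd68, a lysosomal glycoprotein carried by all macrophages (ENSMUSG00000018774, GRCm38 chr11:69664213-69666153, minus strand), had 773 and 803 CPM in the WT libraries and 1110 and 1022 CPM in the Trex1-KO libraries. Both Trex1-KO libraries lay above both WT libraries. The group means were 788 ± 21.4 and 1066 ± 62.3 CPM (SD, n = 2). This is a difference of 0.44 on the log2 scale (SE 0.062, 95% interval 0.30 to 0.57, adjusted p = 0.000208), or 1.35-fold. Cd68 was called in all 7 alternative analyses (log2 fold change 0.35 to 0.44) and without each library in turn (0.36 to 0.50).

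Adgre1, the adhesion receptor stained as F4/80 (ENSMUSG00000004730, chr17:57358691-57483527, plus strand), had 2210 and 2130 CPM in WT and 2371 and 2585 CPM in Trex1-KO. The groups did not overlap, but the gap between them was narrower than that between the Trex1-KO libraries. The log2 fold change was 0.19 (SE 0.053, 95% interval 0.076 to 0.31, adjusted p = 0.0249), or 1.14-fold. The call was lost in edgeR's exact test (adjusted p = 0.0579), with scaling by total counts only (log2 fold change 0.11, adjusted p = 0.198), and without WT replicate 1 (adjusted p = 0.0773), WT replicate 2 (0.195) or Trex1-KO replicate 2 (0.198).

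Csf1r, the M-CSF receptor (ENSMUSG00000024621, chr18:61100598-61132149, plus strand), had 4982 and 4987 CPM in WT and 5072 and 4970 CPM in Trex1-KO. The groups overlapped. The log2 fold change was 0.011 with a 95% interval of -0.080 to 0.10, or 0.946 to 1.07 as a fold. Mertk, the receptor tyrosine kinase for apoptotic cells (ENSMUSG00000014361, chr2:128698956-128802894, plus strand), had 373 and 382 CPM in WT and 389 and 389 CPM in Trex1-KO, with a log2 fold change of 0.043 (95% interval -0.075 to 0.16, adjusted p = 0.676).

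Itgam, the alpha chain that pairs with the beta-2 chain Itgb2 to form the complement receptor Mac-1 (ENSMUSG00000030786, chr7:128062640-128118491, plus strand), had 221 and 240 CPM in WT and 200 and 243 CPM in Trex1-KO. The WT range lay within the Trex1-KO range. Its log2 fold change was -0.056 (95% interval -0.24 to 0.13, adjusted p = 0.740), and this was the least precise of the receptors.

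Of the transcription factors, Spi1, which encodes PU.1 (ENSMUSG00000002111, chr2:91082390-91115756, plus strand), had 360 and 344 CPM in WT and 381 and 398 CPM in Trex1-KO. The groups did not overlap, yet the log2 fold change of 0.14 did not pass the test (95% interval 0.024 to 0.27, adjusted p = 0.104). Cebpa, the C/EBP factor of early myeloid commitment (ENSMUSG00000034957, chr7:35119293-35121928, plus strand), had 378 and 416 CPM in WT and 364 and 353 CPM in Trex1-KO. Both Trex1-KO libraries were below WT, with a log2 fold change of -0.15 that did not pass either (95% interval -0.29 to -0.0074, adjusted p = 0.160). It was called when libraries were scaled by total counts only (log2 fold change -0.23, adjusted p = 0.0298).

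Cebpb, the C/EBP factor of inflammatory activation (ENSMUSG00000056501, chr2:167688915-167690418, plus strand), had 62.6 and 72.7 CPM in WT and 66.1 and 60.3 CPM in Trex1-KO, and its groups overlapped (log2 fold change -0.10, 95% interval -0.29 to 0.091). Maf, encoding c-Maf (ENSMUSG00000055435, chr8:115682942-115707794, minus strand), had 906 and 997 CPM in WT and 938 and 939 CPM in Trex1-KO, which also overlapped (log2 fold change -0.020, 95% interval -0.14 to 0.098). Over all 9 genes, 5 had groups that did not overlap, as had 56.1% of all tested genes.

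**Figure D3:**
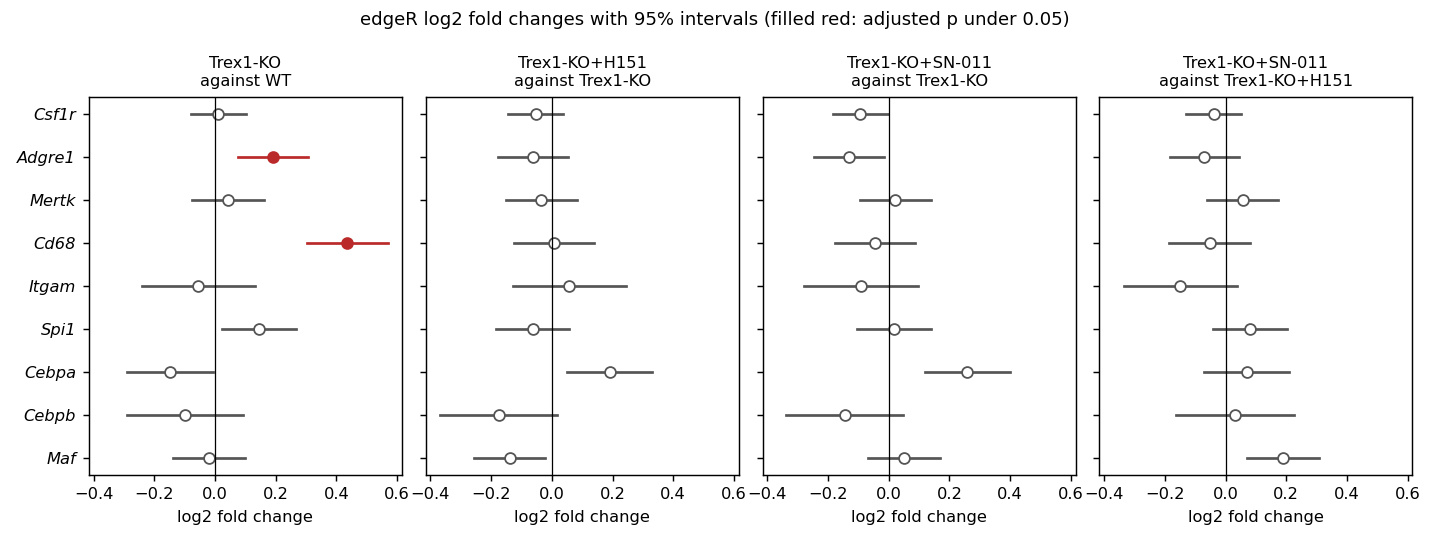
Log2 fold changes of the 9 genes from edgeR (points) with 95% intervals (bars) in 4 comparisons, filled red where the adjusted p was below 0.05. Cd68 (0.44) and Adgre1 (0.19) are the filled points, both in the Trex1-KO against WT panel, and no gene is filled in the 3 panels that involve an antagonist.

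Genes that act with these receptors were examined next, from lists of known partners. In the M-CSF and related growth factor axis (8 genes, 7 tested), 2 rose and 1 fell in Trex1-KO BMDMs, with a median log2 fold change of 0.11. Csf1, which encodes M-CSF itself, had 83.5 ± 4.06 CPM in the Trex1-KO group against 165 ± 22.3 CPM in WT (SD, n = 2). It fell by 0.98 on the log2 scale (SE 0.085, adjusted p = 2.06e-06), beside 0.011 for its receptor. Csf3r, the G-CSF receptor, rose by a log2 fold change of 0.38 (adjusted p = 0.00251) and Csf2ra, the alpha chain of the GM-CSF receptor, by 0.35 (adjusted p = 0.00194).

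Among the TAM receptors, their ligands and other genes of apoptotic cell uptake (6 genes, 5 tested), 1 rose and 1 fell, with a median of -0.029. Axl, a kinase of the same TAM family that shares the ligand Gas6 with Mertk, rose from 102 ± 6.45 to 253 ± 24.2 CPM, by 1.31 on the log2 scale (SE 0.082, adjusted p = 9.08e-08), beside 0.043 for Mertk. Mfge8, a bridging protein that coats apoptotic cells, fell by 0.93 on the log2 scale (adjusted p = 3.61e-05).

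Of the integrins and their adaptors (7 genes, all tested), 2 rose, with a median log2 fold change of 0.14. Itgb2, the chain that Itgam needs to reach the surface, rose by 0.45 (SE 0.057, adjusted p = 8.14e-05) from 385 and 405 CPM in WT to 549 and 531 CPM in Trex1-KO. Itga4, the alpha-4 chain of VLA-4, rose by 0.30 (adjusted p = 0.00372).

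Of 16 other lineage transcription factors tested (18 listed), 5 rose and none fell in this test, with a median log2 fold change of 0.15. Nr1h3, the oxysterol receptor LXR alpha, rose by 1.36 (SE 0.11, adjusted p = 1.80e-06), from 11.9 ± 1.64 to 30.4 ± 0.595 CPM. Pparg, a lipid-sensing nuclear receptor, rose by 0.32 (adjusted p = 0.0218) and Zeb2, a repressor that maintains tissue macrophage identity, also by 0.32 (adjusted p = 0.00166). Cebpe, the C/EBP factor of late granulocyte development, was called on few reads: 2 and 1 counts in WT and 14 and 9 in Trex1-KO, a ratio of 7.65 with a counting interval of 2.31 to 39.8.

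Of 13 further genes used as markers of macrophages or monocytes, called further macrophage genes here, 9 rose and none fell, with a median log2 fold change of 0.38. The largest rises were of Ccr2, the receptor that brings monocytes out of marrow (2.04, adjusted p = 8.19e-09), Siglec1, the sialic acid receptor CD169 (1.46, adjusted p = 3.75e-09), Fcgr1, the high-affinity Fc receptor CD64 (1.14, adjusted p = 2.66e-07), and Ctss, the lysosomal protease cathepsin S (0.48, adjusted p = 4.62e-05). Among the 9 identity genes, by contrast, the largest change was the 0.44 of Cd68. Neither list was tested against the other.

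Markers of other cells moved with genotype. Of 10 granulocyte markers, 7 were tested and 6 rose in Trex1-KO, and the list summed to between 9.96 and 10.2 CPM in WT, 66.9 and 87.7 in Trex1-KO, 78.8 and 84.2 in Trex1-KO+H151 and 79.5 and 101 in Trex1-KO+SN-011. Ly6g and Elane were at 0 in both WT libraries, but Ly6g had only 0 to 3 counts in the other libraries and Elane 3 to 7. Outside WT the highest values of the list were those of S100a9, S100a8, Ngp and Ltf. Of 8 stromal markers, all tested, 6 fell, and the list summed to between 2541 and 2803 CPM in WT, 1055 and 1313 in Trex1-KO, 1362 and 1499 in Trex1-KO+H151 and 1174 and 1379 in Trex1-KO+SN-011, with no stromal marker at 0 in a whole group. Of 6 dendritic cell markers, 3 were tested and 2 rose, Ccr7 and Cd209a were at 0 in every library, and the sum was at most 3.70 CPM. Of 5 osteoclast markers, 2 were tested, Acp5 rising and Ctsk falling, Calcr was at 0 throughout, and the sum was 11.1 to 16.6 CPM over all libraries. Of 6 cell cycle markers, 1 rose. The part of these cells in the differences of Cd68, Adgre1, Csf1, Csf3r, Cebpe, Itgb2 and the other genes above was not tested.

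**Figure D4:**
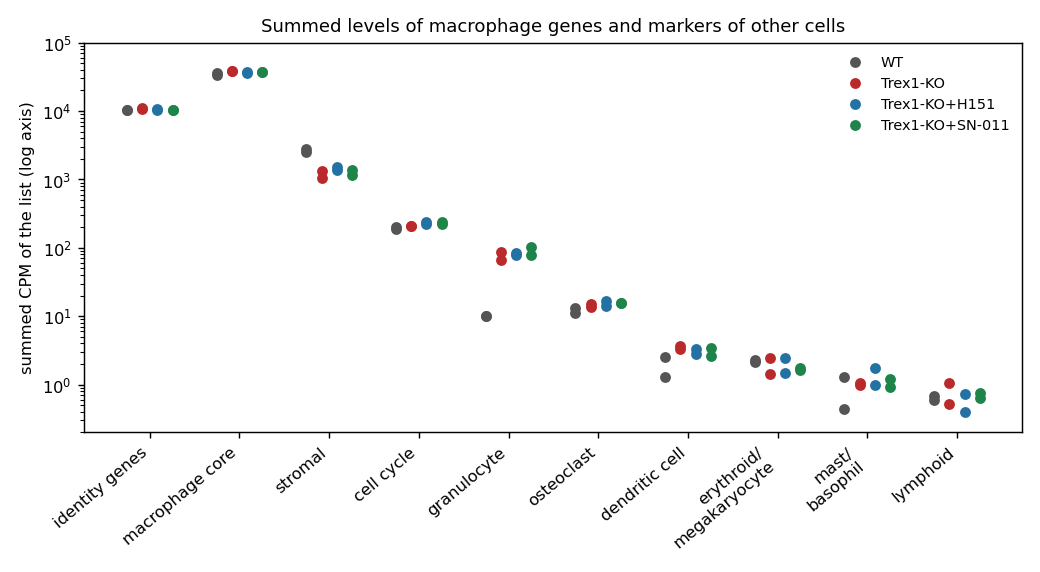
Summed CPM of the 9 identity genes, of 13 further macrophage genes and of 8 marker lists of other cells or of proliferation, on a log axis, with 1 point per library coloured by group. Granulocyte markers rise from at most 10.2 CPM in WT to at least 66.9 CPM in every other library and stromal markers fall from at least 2541 to at most 1499 CPM, while lymphoid, mast cell and erythroid markers stay at 2.49 CPM or below.

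The next comparisons asked whether blocking STING for 12 h in Trex1-KO BMDMs changed the identity genes. They share the Trex1-KO libraries with the comparison above, and with each other, so the values are given side by side and not correlated. With H151, none of the 9 genes was called by edgeR's quasi-likelihood test, where 2.23% of all tested genes were called (0.384% as higher, 1.84% as lower), and none was called by DESeq2 or edgeR's exact test either. At an unadjusted p below 0.05 there were 2, Cebpa and Maf. For no comparison was the share of all tested genes below that cut counted, so such counts have no background here. The members' median log2 fold change was -0.054, beside 0.0012 over all tested genes, and every 95% interval lay between -0.37 and 0.33. With SN-011, none was called by the quasi-likelihood test, where 2.33% of all tested genes were called (0.110% as higher, 2.22% as lower), none by DESeq2 and 1 by the exact test. At an unadjusted p below 0.05 there were 3, Cebpa, Adgre1 and Csf1r, and the median was -0.045, beside 0.0088 over all tested genes.

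Cd68 was called with neither antagonist. Its CPM values were 1127 and 1016 with H151 and, with SN-011, 1012 and 1054, each of which overlapped the 1110 and 1022 CPM of Trex1-KO. The log2 fold change against Trex1-KO was 0.0076 with H151 (95% interval -0.12 to 0.14) and -0.045 with SN-011 (95% interval -0.18 to 0.088). A fall of 0.44, the size of the genotype difference, lay outside both intervals. That difference has its own 95% interval, 0.30 to 0.57, and rests on the same Trex1-KO libraries.

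Adgre1 had 2323 and 2424 CPM with H151, which overlapped Trex1-KO, and 2315 and 2208 CPM with SN-011, both below Trex1-KO and overlapping WT. The log2 fold change was -0.062 with H151 (95% interval -0.18 to 0.053, adjusted p = 0.863) and -0.13 with SN-011 (95% interval -0.25 to -0.017, adjusted p = 0.326). Neither passed the test.

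Cebpa was the member that differed most from Trex1-KO under each antagonist. It had 431 and 387 CPM with H151, and with SN-011 432 and 426 CPM, all above the 364 and 353 CPM of Trex1-KO. The log2 fold change was 0.19 with H151 (95% interval 0.049 to 0.33, adjusted p = 0.256) and 0.26 with SN-011 (SE 0.065, 95% interval 0.12 to 0.40, adjusted p = 0.0609), neither of which passed. The SN-011 value was called in 5 of 7 alternative analyses, with adjusted p from 0.00111 to 0.0671 over the 7. These included scaling by total counts only, keeping genes of at least 1 count, a fit of only those 2 groups, and the exact test. It was not called when each of the 4 libraries was left out in turn, where the log2 fold change was 0.24 to 0.28 and the adjusted p 0.163 to 0.427.

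Csf1r had 4949 and 4725 CPM with H151, and with SN-011 4690 and 4724 CPM. All 4 libraries lay below both Trex1-KO libraries, by a log2 fold change of -0.054 with H151 (95% interval -0.14 to 0.037) and -0.093 with SN-011 (95% interval -0.18 to -0.0022, adjusted p = 0.401). Neither passed. Mertk, at 390 and 369 CPM with H151, and with SN-011 388 and 402 CPM, overlapped Trex1-KO under both.

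Itgam had 217 and 243 CPM with H151, and with SN-011 209 and 207 CPM, which lie inside or beside the Trex1-KO range. Spi1 had 364 and 382 CPM with H151, and with SN-011 392 and 397 CPM, overlapping Trex1-KO in both cases. For Spi1 the log2 fold changes of -0.063 and 0.017 had 95% intervals of -0.18 to 0.058 and -0.10 to 0.14.

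Cebpb had 59.1 and 52.9 CPM with H151, and with SN-011 57.6 and 56.6 CPM, all below Trex1-KO. Its log2 fold changes, -0.18 with H151 (95% interval -0.37 to 0.019) and -0.14 with SN-011 (95% interval -0.34 to 0.048), did not pass. Maf had 844 and 861 CPM with H151, both below Trex1-KO (log2 fold change -0.14, 95% interval -0.26 to -0.021, adjusted p = 0.384), and 956 and 987 CPM with SN-011, both above (0.049, 95% interval -0.069 to 0.17). Groups did not overlap for 4 members with H151, where this held for 35.4% of all tested genes, and for 5 with SN-011, where it held for 43.4%.

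Genes around the members did fall under both antagonists. Of 13 further macrophage genes, 2 fell with H151 and 2 with SN-011: Fcgr1, by 0.50 on the log2 scale with H151 (adjusted p = 0.00256) and 0.49 with SN-011 (adjusted p = 0.00289), and Siglec1, by 0.46 (adjusted p = 0.000693) and 0.47 (adjusted p = 0.000582). Of the 7 integrin genes, 2 fell with each: Itgal, the alpha chain of LFA-1, by 0.33 with H151 (adjusted p = 0.00462) and 0.25 with SN-011 (adjusted p = 0.0292), and Itga4 by 0.30 (adjusted p = 0.0180) and 0.32 (adjusted p = 0.0106). No gene of the growth factor, TAM or lineage transcription factor lists was called with either antagonist, with medians between -0.086 and 0.15. No granulocyte or stromal marker was called either.

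H151 binds STING covalently, whereas SN-011 occupies the pocket of its cyclic dinucleotide ligand. The antagonists were compared directly as 1 pair, with p-values adjusted over all tested genes. None of the 9 genes was called by the quasi-likelihood test (0.158% of all tested genes were), by DESeq2 or by the exact test, and 1, Maf, had an unadjusted p below 0.05. Maf was higher with SN-011 than with H151 in both libraries, by a log2 fold change of 0.19 (SE 0.055, 95% interval 0.070 to 0.31, adjusted p = 0.364), and was called only where genes with at least 1 count were kept (adjusted p = 0.0242 over the larger set). The other 8 log2 fold changes lay between -0.15 (Itgam) and 0.080 (Spi1), with all 95% intervals within -0.34 to 0.23, which does not show that the molecules act alike on these genes. Groups did not overlap for 5 members, as for 39.7% of all tested genes. Among the other lists only Csf2rb, the shared beta chain of the GM-CSF receptor, was called, at 529 ± 12.1 CPM with H151 and, with SN-011, 392 ± 10.6 CPM (log2 fold change -0.43, SE 0.059, adjusted p = 0.0117). The SN-011 libraries carry other treatment wording in the labels than the other 6. In every comparison that involves them, those with Trex1-KO and WT included, a batch confined to them cannot be told apart from the treatment.

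The treated groups were also set against WT, and these comparisons share the WT libraries. With H151, 1 member was called, Cd68, where 11.8% of all tested genes were called (6.79% as higher, 5.04% as lower). With SN-011, 1 member was called, again Cd68, where 11.7% were called (6.18% higher and 5.57% lower). The log2 fold change of Cd68 was 0.44 with H151 (SE 0.062, 95% interval 0.31 to 0.58, adjusted p = 0.000295) and 0.39 with SN-011 (SE 0.062, 95% interval 0.26 to 0.52, adjusted p = 0.000775). Groups did not overlap for 6 members with H151 and 7 with SN-011, as for 52.1% and 54.3% of all tested genes.

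Adgre1 stood 0.13 above WT with H151 (95% interval 0.014 to 0.24, adjusted p = 0.152) and 0.060 above WT with SN-011 (95% interval -0.056 to 0.17, adjusted p = 0.581) on the log2 scale, neither of which passed. Cebpb was below both WT libraries in all 4 treated libraries, with log2 fold changes of -0.27 with H151 (95% interval -0.47 to -0.082, adjusted p = 0.0656) and -0.24 with SN-011 (95% interval -0.44 to -0.053, adjusted p = 0.104). Maf was below WT with H151 (-0.16, 95% interval -0.28 to -0.041, adjusted p = 0.0820) and Spi1 above WT with SN-011 (0.16, 95% interval 0.042 to 0.28, adjusted p = 0.0841). For H151 against WT the count of members called rose to 3 without WT replicate 1, adding Cebpb and Maf, and to 2 without Trex1-KO+H151 replicate 1, adding Cebpb. It was also 3 with scaling by total counts only.

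Several of the partner genes also differed from WT in the treated cells. Axl was 1.08 above WT with H151 (adjusted p = 1.78e-06) and 1.02 with SN-011 (adjusted p = 2.54e-06), and Csf1 was below WT by -0.81 (adjusted p = 2.74e-05) and -0.88 (adjusted p = 1.23e-05) on the log2 scale. Itgb2 was 0.50 and 0.41 above WT, while Itgal, which had not been called in Trex1-KO, was below WT by -0.37 (adjusted p = 0.000543) and -0.30 (adjusted p = 0.00299). Of the 13 further macrophage genes, 8 were called higher than WT with each antagonist, among them Siglec1 at 1.00 with H151 and 0.99 with SN-011. Of the 16 lineage transcription factors tested, 5 were called higher with H151 and 4 with SN-011, including Nr1h3 (0.97 and 0.93) and Id2, a helix-loop-helix inhibitor (0.32 and 0.43). The granulocyte (6 of 7 tested higher) and stromal (6 of 8 lower) lists also remained away from WT in both treated groups, and their part in these values was not tested.

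Ordered by mean CPM, Cd68 ran from Trex1-KO+H151 through Trex1-KO and Trex1-KO+SN-011 to WT, and only the last step, down to WT, passed the test. Adgre1 ran from Trex1-KO through Trex1-KO+H151 and Trex1-KO+SN-011 to WT, and no neighbouring groups in that order differed by the test. For the other 7 genes no comparison passed, so that the order of their group means is within what the test could not separate.

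The genes whose pattern over the 8 libraries was closest to each called member were found as those with the smallest root mean square (RMS) difference of log2 CPM after centring, among the 10714 tested genes whose average log2 CPM was 2 or more. For Cd68 these were Dennd4c (RMS difference 0.029), Itgb2 (0.030) and Stom (0.037), where the median over all genes was 0.22. Itgb2 is also the integrin chain described above, Stom encodes the membrane protein stomatin and Dennd4c a Rab exchange factor. For Adgre1 they were Dnajc8 (0.028), Zfp710 (0.031) and Zfp825 (0.031), where the median was 0.14. As Adgre1 varied little, many genes that vary little lie close to it.

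**Figure D5:**
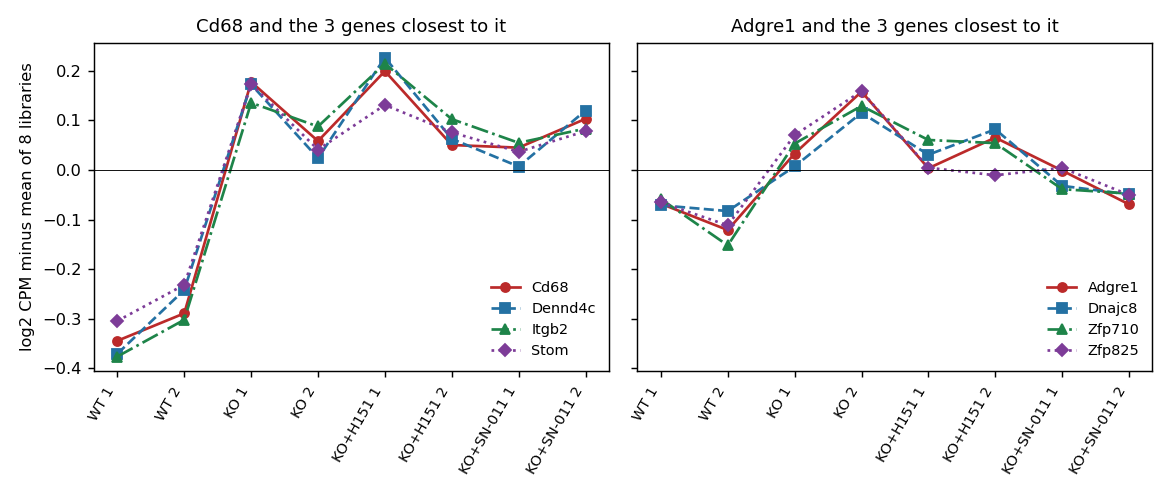
Centred log2 CPM of Cd68 and Adgre1 with the 3 genes closest to each, by library, in order of group. Cd68, Dennd4c, Itgb2 and Stom are all below their mean in both WT libraries and above it in all 6 others, while Adgre1 and its 3 neighbours are lowest in WT replicate 2 and highest in Trex1-KO replicate 2, within a range of about 1.21-fold for Adgre1.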

How the data were processed

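Groups and replicate numbers came from the sample titles. The authors trimmed read pairs with Trimmomatic and aligned them with hisat2, and deposited raw counts per Ensembl gene for each library. The study's methods name featureCounts for counting and the submitters' processing notes name HTSeq and build mm10. Libraries were strand-specific per the study's methods, while tool versions, the annotation release and the counting tool's strand option are not given in the sources used here. Symbols, positions and exons came from GENCODE mouse release M21 (GRCm38), which held 54495 of 54532 identifiers. Of 454 genes whose exons are covered by an opposite-strand gene, 3 were counted at all, and of 702 covered by a same-strand gene, 24 were, so reads shared by overlapping genes were taken as not counted.

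Counts were tested in R 4.3.3 with edgeR 4.0.16: TMM factors, filterByExpr (minimum count 10, minimum total 15), 1 quasi-likelihood fit of all 8 libraries, two-sided F-tests and Benjamini-Hochberg adjustment over 14591 genes at a threshold of 0.05. Standard errors were taken from F and the log2 fold change, and 95% intervals use the fit's degrees of freedom. DESeq2 1.42.0 was an alternative. In simulated data for Trex1-KO against WT (50 genes changed per size), the fit recovered 20% of 1.25-fold and 56% of 1.5-fold changes. It recovered 94% of 2-fold and 98% of 4-fold changes, and 4.96% of calls were false. The changed genes were not matched to the members' levels. Replicates differed beyond sampling noise (chi-square per degree of freedom 3.07 to 6.04). Intervals on counts cover counting error only. The members and lists were chosen with earlier results of these data known. Named genes are the 9 members, up to 4 called genes of each other list per comparison by size of change, and the 3 genes most like each called member. Marker genes are named from their lists.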

Additional observations from a re-analysis of the deposited data

How the results depend on the processing

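With 2 libraries per group, the 95% intervals of most members spanned changes in both directions, which this depth and design could not separate. Over 594 alternative values of single members, 532 kept their direction and side of the threshold, 20 passed it, 5 (all Adgre1, Trex1-KO against WT) no longer did and 37 changed sign, none of them called. For Trex1-KO against WT, the 2 members called became 1 in the exact test and 1 to 2 without each library in turn. For SN-011 against Trex1-KO, the count of 0 became 1 (Cebpa) with total counts only, genes of at least 1 count, a fit of 2 groups, and the exact test. For SN-011 against H151, 0 became 1 (Maf) with genes of at least 1 count. For H151 against WT, 1 became 3 with total counts only and with genes of at least 1 count (Cebpb, Maf), 2 in the exact test (Cebpb), and 1 to 3 without each library. For SN-011 against WT, 1 became 2 with total counts only and with genes of at least 1 count (Cebpb) and 4 in a fit of 2 groups (with Csf1r, Spi1 and Cebpb). H151 against Trex1-KO stayed at 0. The cause of these changes was not tested. A fit that left 1 library in a group assumed that it varies like the others.

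The replicate numbers in the titles were not shown to pair the samples. Correlations of deviations across genes ran from -0.016 to 0.19, the highest being between Trex1-KO and Trex1-KO+H151. In those groups the replicates of every member differed in the same direction. With the replicate block, SN-011 against Trex1-KO had 1 member called (Cebpa, adjusted p = 0.0440), and the other 5 counts were as without it.

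Sign changes with total counts only were Csf1r (-0.074) and Mertk (-0.042) for Trex1-KO against WT, Mertk (-0.052), Itgam (-0.059) and Cebpa (-0.018) for H151 against WT, and Maf (-0.028) for SN-011 against WT, on the log2 scale. With genes of at least 1 count they were Csf1r (-0.0042) for Trex1-KO against WT, and Mertk (-0.0094) and Itgam (-0.016) for H151 against WT, where Itgam was also -0.0033 with RLE factors and -0.0034 in DESeq2.

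Without each library in turn, the log2 fold changes that changed sign ranged, for Trex1-KO against WT, from -0.017 to 0.026 for Csf1r, -0.20 to 0.064 for Itgam, -0.22 to 0.0019 for Cebpb and -0.10 to 0.038 for Maf. For H151 against Trex1-KO they ranged from -0.12 to 0.0038 for Adgre1, -0.073 to 0.0052 for Mertk, -0.067 to 0.080 for Cd68 and -0.075 to 0.21 for Itgam. For SN-011 against Trex1-KO they ranged from -0.10 to 0.018 for Cd68, -0.22 to 0.056 for Itgam and -0.013 to 0.051 for Spi1. For SN-011 against H151 they ranged from -0.13 to 0.026 for Cd68, -0.0065 to 0.15 for Cebpa and -0.051 to 0.11 for Cebpb. For H151 against WT they ranged from -0.044 to 0.039 for Mertk, -0.092 to 0.069 for Itgam and -0.048 to 0.11 for Cebpa, and for SN-011 against WT from -0.050 to 0.091 for Maf.

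Over all genes, scaling by total counts only moved the share of calls that were higher from 57.4% to 41.7% for H151 against WT and from 52.6% to 40.3% for SN-011 against WT. Keeping genes of at least 1 count moved the calls from 325 to 525 for H151 against Trex1-KO, from 340 to 679 for SN-011 against Trex1-KO and from 23 to 266 for SN-011 against H151, which had 84 in the exact test, 44 with the block and 41 in DESeq2. For SN-011 against Trex1-KO, the calls that were higher numbered 16 (4.71% of calls), and 7 (2.30%) in DESeq2, 29 (9.73%) with total counts only, 40 (9.26%) in a fit of 2 groups, 49 (11.2%) with the block, 68 (14.0%) in the exact test and 194 (28.6%) with genes of at least 1 count. For SN-011 against H151 they numbered 0, and 152 (57.1%) with genes of at least 1 count, 24 (28.6%) in the exact test and 6 (13.6%) with the block.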
